A study of Mus musculus with 25 samples.

Results

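Liver RNA was compared between 10 old mice that had spent 5 weeks joined to another mouse, 5 of them to a young wild-type (WT) partner and 5 to another old mouse. The 10 livers were taken by their sample labels from a series of 25 livers, and no measured value entered the choice. In parabiosis the skin of a pair of animals is joined surgically, so that their circulations fuse and blood-borne factors and cells pass between them. All 10 old mice were C57BL/6, WT and 21 months old, and all had undergone parabiosis, so that surgery and joining were common to both groups. The livers joined to an old mouse are called old-old livers here, and those joined to a young mouse WT-partner livers. The young WT partners were 5 months old and of the same strain. A further group of 5 old WT livers had been joined to young mice of the same age and strain heterozygous for Manf (het partners), and the livers of both kinds of young partner, 5 of each, were profiled too. They are used here only to show where the WT-partner livers differed. The design text gives 5 animals per condition, so replicates are separate mice, but the sources name neither the individual pairs nor the sex of the animals, nor the time of day at which tissue was taken. Both mice of an old-old pair are old, so some old-old livers may come from the same pair. The tests treat all livers as independent.

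The liver is a target of blood-borne signals and runs its own daily clock. In that clock the proteins encoded by Arntl (BMAL1) and Clock bind E-box elements and switch on their own repressors, the Per and Cry proteins, together with output factors such as Dbp and Tef, which act through D-box elements. Arntl itself is controlled through ROR elements. A separate system, the unfolded protein response, raises the chaperones of the endoplasmic reticulum (ER) when secretory proteins accumulate there, in part through the ER stress response element (ERSE). Manf encodes a secreted ER-resident protein of that response.

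Levels are RPKM, that is, reads divided by the length of the gene and by the size of its library, as the authors deposited them. The size used for scaling, recovered from the spacing of the values, was 22.8 M to 24.2 M reads in old-old livers and 24.3 M to 26.9 M reads in WT-partner livers. Pairs of old-old livers correlated over genes at 0.967 to 0.988 and pairs of WT-partner livers at 0.971 to 0.987. Identical libraries were not found. Some livers stood apart. Old-old liver 4 was the highest of the 10 in transcripts of MHC class II presentation, with 814 RPKM summed over the 11 genes. The other old-old livers summed to 166 to 308 RPKM and WT-partner livers to 108 to 339 RPKM. WT-partner liver 2 had the highest such sum of its group. WT-partner liver 4 held skeletal muscle RNA, with 286 RPKM summed over 18 muscle markers against 2.76 to 4.22 RPKM in the other 9 livers; Acta1, skeletal muscle actin, stood at 58.1 RPKM there and at no more than 0.188 RPKM elsewhere. The 20 hepatocyte markers were abundant in every liver, with summed levels of 50357 to 65077 RPKM in old-old and 45047 to 66091 RPKM in WT-partner livers.

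A young WT partner went with changes in 110 of 9372 tested genes in the old liver (1.17%), of which 70 were higher (0.747%) and 40 lower (0.427%). A gene was tested where 5 or more of the 25 livers reached 1 RPKM. The limma model took all 5 groups and the log2 of RPKM with 0.5 added, and a gene passed at an adjusted p under 0.05 (Benjamini-Hochberg over all tested genes). Differences are therefore on the log2(RPKM + 0.5) scale, WT partner minus old partner, with their SE, and understate the change of genes at low levels. The median over all tested genes was -0.01. At an unadjusted p under 0.05 there were 1496 genes (16%). For 390 genes (4.16%) the livers of one group did not overlap those of the other, 240 of them higher (2.56%) and 150 lower (1.6%). The count of 110 rested on several single livers: it was 58, 34 and 29 without old-old livers 1, 4 and 5, 231 without old-old liver 2, and 34 and 12 without WT-partner livers 1 and 3. Without the liver of each group highest in MHC class II transcripts, old-old 4 and WT-partner 2, it was 32. Without the liver with muscle RNA it was 86. Of the 106 passing genes that are named genes and not predicted ones, 12 passed in each of the 10 omissions of a single liver, among them Arntl, Ciart, Dbp, Per3, Tef, Wee1, Serpina6 and Hspa13.

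**Figure D1:**
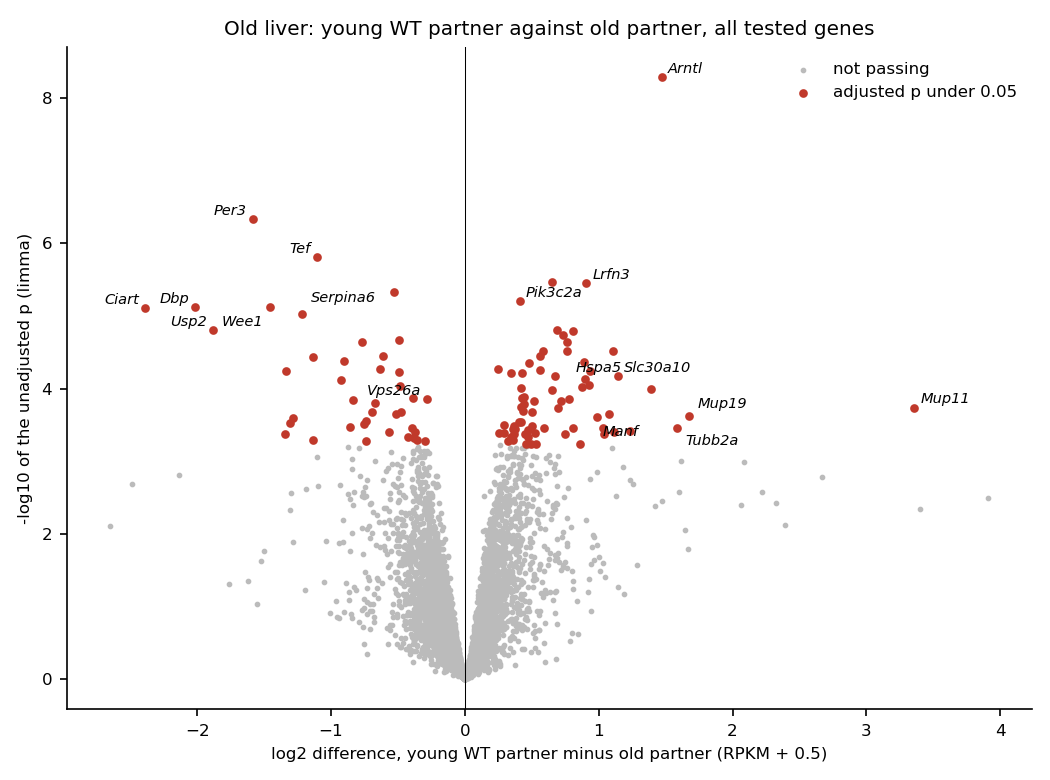
Each point is a tested gene, with the log2 difference between WT-partner and old-old livers (n = 5 each) on the horizontal axis and minus log10 of the unadjusted limma p on the vertical axis. Red points are the 110 genes that passed; Arntl lies highest, and Ciart and Dbp lie farthest to the left among them, Mup11 farthest to the right.

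Genes of the circadian clock had the lowest p, that of Arntl, and the 4 largest falls among passing genes, those of Ciart, Dbp, Usp2 and Per3. Arntl, which encodes the clock's core activator, rose, its partner gene Clock rose with it, and repressors and output genes of the clock fell. Of 15 tested members of the core clock loop 2 rose and 4 fell (median log2 difference -0.37, against -0.01 for all genes). Of 16 tested clock output and accessory genes 1 rose and 7 fell (median -0.79). Among all tested genes 0.747% rose and 0.427% fell. Npas2, a relative of Clock, and Bhlhe41, a clock repressor, were too low to be tested. Npas2 read 0.0498 ± 0.0266 RPKM in old-old and 0.377 ± 0.19 RPKM in WT-partner livers, and Bhlhe41 0.727 ± 0.223 and 0.229 ± 0.132 RPKM (mean ± SD, n = 5 each). Also untested was Lonrf3 of the output list. Levels of clock genes vary over the day, and since the time of collection is not given, a difference in that time between the groups cannot be told apart from an effect of the partner. These clock genes were chosen with earlier results of the same data known.

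On the activating side, Arntl (chr7:113207465-113314126, plus strand, mm10) stood at 0.378, 0.247, 0.351, 0.25 and 0.21 RPKM in old-old livers 1 to 5. In WT-partner livers 1 to 5 it read 1.71, 1.38, 2.73, 1.77 and 1.09 RPKM. Every WT-partner liver lay above every old-old liver, and the lowest of them was well clear of the highest old-old liver. The log2 difference was 1.47 ± 0.16 (SE, adjusted p = 4.82e-05), and Arntl had the lowest p of all tested genes. Clock (chr5:76209868-76304792, minus strand), whose product pairs with BMAL1, read 1.86, 1.8, 2.06, 1.58 and 1.44 RPKM in old-old and 3.81, 2.55, 3.59, 3.35 and 3.29 RPKM in WT-partner livers. The groups again did not overlap, with WT-partner liver 2 the lowest of its group (log2 0.76 ± 0.14, adjusted p = 0.0121). Nfil3, a repressor acting on D-box elements whose peak is opposite to that of Dbp, did not pass, at 0.464 ± 0.0986 against 1.02 ± 0.369 RPKM (log2 0.63 ± 0.17, adjusted p = 0.0555).

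Among the repressors, Ciart (chr3:95878503-95882251, minus strand), which encodes a repressor of BMAL1 and CLOCK, had the largest fall of any passing gene. It read 4.24, 5, 3.11, 4.16 and 9.64 RPKM in old-old livers and 0.182, 0.389, 0.233, 1.08 and 1.11 RPKM in WT-partner livers. Old-old liver 5 was far above the rest of its group, yet the lowest old-old liver was still higher than any WT-partner liver (log2 -2.39 ± 0.42, adjusted p = 0.0074). Per3 (chr4:151003652-151044665, minus strand), a period gene, read 2.84, 3.12, 4.86, 3.63 and 4.34 RPKM in old-old and 0.682, 0.912, 0.431, 1.01 and 1.82 RPKM in WT-partner livers. The groups were apart, and the fall was -1.58 ± 0.23 (adjusted p = 0.0022). Per1 (chr11:69095217-69109960, plus strand), another period gene, read 3.5, 3.66, 3.92, 6.42 and 11.6 RPKM in old-old and 1.7, 1.29, 1.5, 2.79 and 2.25 RPKM in WT-partner livers. Old-old livers 4 and 5 carried its highest levels, and no livers overlapped (log2 -1.29 ± 0.30, adjusted p = 0.036). Cry2, which encodes a cryptochrome that represses with the period proteins, fell from 6.85 ± 0.799 to 4.22 ± 1.22 RPKM (log2 -0.67 ± 0.15, adjusted p = 0.0279). Its paralog Cry1 did not pass, at 0.963 ± 0.174 against 1.91 ± 0.744 RPKM (log2 0.67 ± 0.19, adjusted p = 0.0701), and Per2 did not either, at 3.6 ± 0.877 against 1.76 ± 0.349 RPKM (log2 -0.85 ± 0.22, adjusted p = 0.0565).

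The nuclear receptor genes of the loop read closer together. Nr1d1 and Nr1d2, which encode the REV-ERB repressors of Arntl, stood at 38.9 ± 5.14 against 30.5 ± 7.69 RPKM (adjusted p = 0.447) and at 18.6 ± 1.43 against 14.5 ± 3.35 RPKM (adjusted p = 0.173). Rora, an activator acting on the same elements, stood at 3.82 ± 0.38 against 3.78 ± 0.771 RPKM. The groups overlapped in all 3 genes.

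The output genes moved with the repressors. Dbp (chr7:45705088-45710203, plus strand), a transcription factor acting on D-box elements, read 34, 33.8, 39.9, 41 and 47.2 RPKM in old-old and 5.01, 12.9, 3.09, 14.2 and 22.1 RPKM in WT-partner livers. The WT-partner livers varied more among themselves than the old-old livers, with livers 1 and 3 lowest, and none reached the old-old range (log2 -2.01 ± 0.35, adjusted p = 0.0074). Tef (chr15:81802421-81826863, plus strand), a relative of Dbp, read 22.6, 21.9, 25.9, 23 and 26.4 RPKM against 8.86, 10.9, 8.03, 11.8 and 16.4 RPKM. WT-partner liver 5 was its highest, still below all old-old livers (log2 -1.10 ± 0.17, adjusted p = 0.00485). Hlf, of the same family, did not pass, at 5.92 ± 0.955 against 4.16 ± 0.623 RPKM (log2 -0.46 ± 0.12, adjusted p = 0.0561). Usp2 (chr9:44067021-44095627, plus strand), a deubiquitinase gene driven by the clock, read 2.43, 4.93, 5.17, 3.2 and 7.92 RPKM in old-old livers and 0.864, 0.445, 0.516, 0.978 and 1.64 RPKM in WT-partner livers. The groups did not overlap (log2 -1.88 ± 0.35, adjusted p = 0.0109). Wee1 (chr7:110122046-110143286, plus strand), which encodes a kinase that delays entry into mitosis and is a clock target in liver, read 2.15, 2.35, 2.79, 3.48 and 3.88 RPKM against 0.602, 0.705, 0.407, 0.858 and 1.19 RPKM. Its lowest old-old liver was above its highest WT-partner liver (log2 -1.46 ± 0.26, adjusted p = 0.0074).

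Metabolic genes on the clock output list fell as well. Upp2 (chr2:58567298-58792971, plus strand), a uridine phosphorylase of liver, read 71.7, 45, 55.6, 79.3 and 61.9 RPKM in old-old livers and 13.4, 47.1, 14.7, 26.3 and 36.3 RPKM in WT-partner livers. WT-partner liver 2 lay within the old-old range, so the groups overlapped (log2 -1.31 ± 0.31, adjusted p = 0.039), and the call held in 4 of 10 omissions. Gys2 (chr6:142422613-142473109, minus strand), the liver glycogen synthase, read 68.6, 62.5, 60.5, 95.2 and 122 RPKM against 28.3, 33.3, 28.2, 48.5 and 44.6 RPKM. It fell without overlap, and old-old livers 4 and 5 again held the highest levels (log2 -1.13 ± 0.22, adjusted p = 0.0144). Coq10b, which encodes a coenzyme Q binding protein, fell by 0.74 ± 0.18 (adjusted p = 0.0467), a call that held in 1 of 10 omissions. The single output list member that rose was Tars, the threonyl-tRNA synthetase, from 31.1 ± 4.58 to 51.6 ± 7.73 RPKM (log2 0.72 ± 0.16, adjusted p = 0.0267), which held in 3 of 10 omissions. Por, the electron donor of cytochrome P450 enzymes, did not pass, at 85.3 ± 23.4 against 45.9 ± 10.5 RPKM (adjusted p = 0.052).

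**Figure D2:**
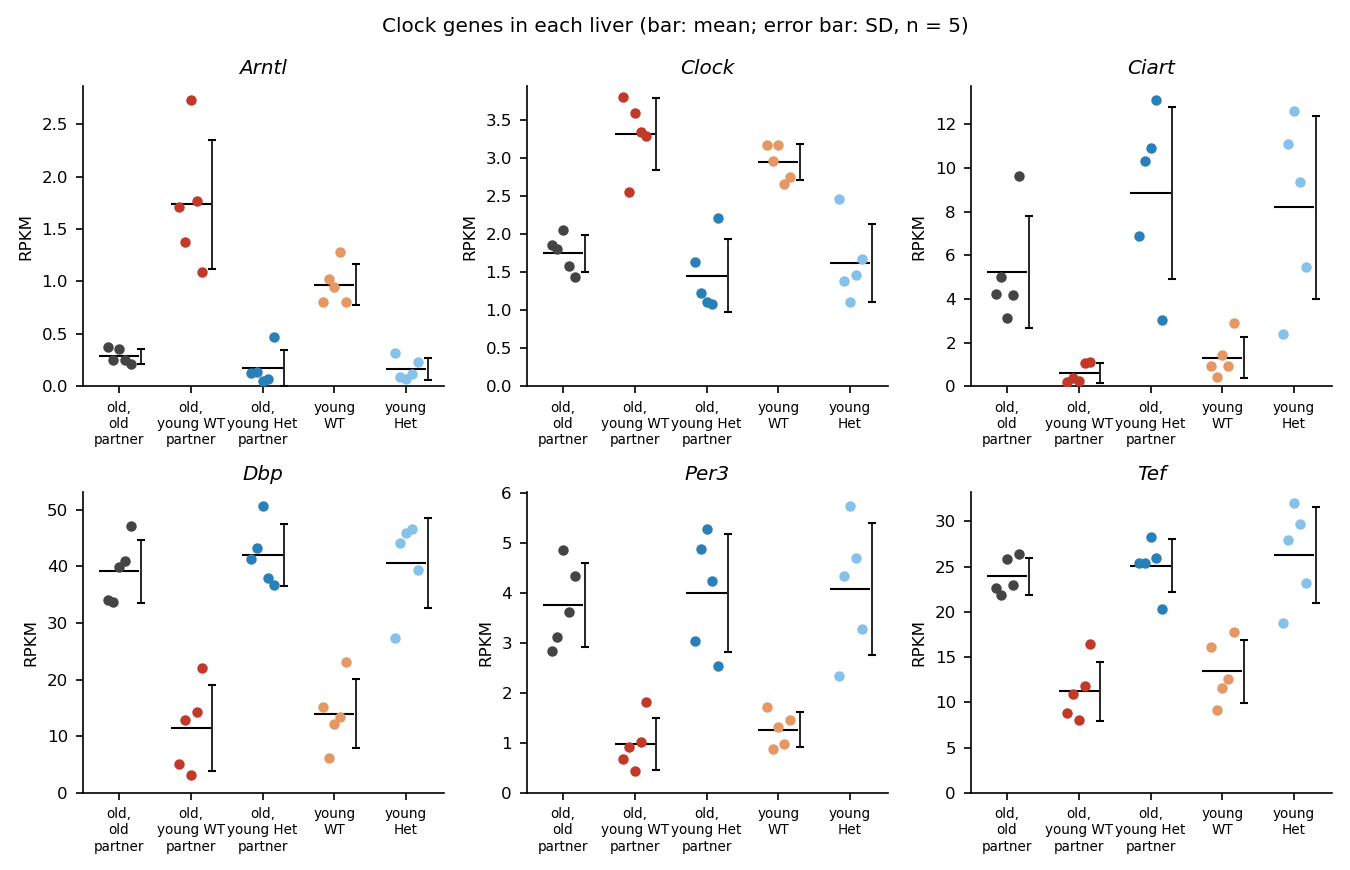
RPKM of 6 clock genes in each of 25 livers, in 5 groups of 5; horizontal bars are means and error bars SD. In Arntl and Clock the WT-partner livers sit above the old-old livers, and in Ciart, Dbp, Per3 and Tef below them, while the young WT and young Het livers show the levels of the joined young mice.

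Promoters of clock genes that passed are shown because they carry the elements through which the loop is known to act. The windows reach from 250 bases before to 50 bases after an annotated start and come from RefSeq on GRCm38.p6; capitals mark a match to the searched letters on either strand. The E-box was searched as CACGTG, the D-box as TTANGTAA and the ROR element as AANT followed directly by AGGTCA or GGGTCA. Of 2 windows of Arntl, that at chr7:113207261-113207560 on the plus strand holds a ROR element match and the other holds none. The window of Ciart at chr3:95882179-95882478 on the minus strand holds 3 E-box matches. Of 2 windows of Per1, that at chr11:69098699-69098998 on the plus strand holds 1 E-box match and the other holds none. The window of Per3 at chr4:151044616-151044915 on the minus strand holds 2 D-box matches. Only the windows with a match are shown.
Arntl: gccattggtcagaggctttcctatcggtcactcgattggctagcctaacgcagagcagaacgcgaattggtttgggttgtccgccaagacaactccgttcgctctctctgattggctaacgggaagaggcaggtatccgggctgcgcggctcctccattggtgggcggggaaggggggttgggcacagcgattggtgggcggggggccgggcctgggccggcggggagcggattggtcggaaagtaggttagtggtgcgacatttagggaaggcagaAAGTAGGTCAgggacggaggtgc
Ciart: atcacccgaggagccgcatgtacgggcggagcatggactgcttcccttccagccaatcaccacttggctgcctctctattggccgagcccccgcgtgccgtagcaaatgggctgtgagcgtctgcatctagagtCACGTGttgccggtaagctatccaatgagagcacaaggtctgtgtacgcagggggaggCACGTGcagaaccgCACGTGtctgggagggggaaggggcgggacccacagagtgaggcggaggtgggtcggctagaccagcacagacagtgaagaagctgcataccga
Per1: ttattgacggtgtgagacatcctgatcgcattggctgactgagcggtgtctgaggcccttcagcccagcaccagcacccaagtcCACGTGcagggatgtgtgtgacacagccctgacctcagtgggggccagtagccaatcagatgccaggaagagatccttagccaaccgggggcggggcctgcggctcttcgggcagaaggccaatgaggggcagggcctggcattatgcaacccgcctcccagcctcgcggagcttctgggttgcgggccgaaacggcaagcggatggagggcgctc
Per3: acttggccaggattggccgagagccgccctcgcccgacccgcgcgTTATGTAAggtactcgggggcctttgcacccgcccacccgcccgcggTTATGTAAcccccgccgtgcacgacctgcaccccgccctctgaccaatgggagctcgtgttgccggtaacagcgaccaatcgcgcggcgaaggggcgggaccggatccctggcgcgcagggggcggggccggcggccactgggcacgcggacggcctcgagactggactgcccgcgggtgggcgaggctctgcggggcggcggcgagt
Of 32851 windows of all genes, 7.15% hold the E-box letters, 2.32% the D-box letters and 0.435% the ROR element letters. These windows were not limited to tested genes, whereas every passing gene was a tested one. A share over tested genes alone was not computed. Among the 40 lower genes, 32 had windows in the table, and 13 of their 41 windows (31.7%) held an E-box. Among the 70 higher genes, 53 had windows, and 5 of 62 windows (8.06%) held one. Both windows of Tef hold an E-box, whereas the windows of Clock, Cry2, Dbp, Usp2 and Upp2 hold none of these letters, which says only that the letters are not in those windows. A match is a stretch of letters, not a measured binding site.

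Manf, the gene disrupted in the other young partners of the series, was intact in all 10 old mice and was higher with a young WT partner. It read 9.64, 9.89, 12.1, 5.9 and 6.72 RPKM in old-old livers and 17.4, 17.8, 13.7, 20.3 and 18.9 RPKM in WT-partner livers. No liver of one group reached the other, and the mean went from 8.86 ± 2.53 to 17.6 ± 2.46 RPKM. The log2 difference was 0.99 (two-sided exact permutation test, p = 0.00794, which no split of 5 against 5 livers can undercut). In the fit across all genes limma gave an adjusted p = 0.0355, and this call held in 3 of 10 omissions of a single liver. As a check of the labels, Manf averaged 15.3 ± 6.47 RPKM in young WT partners and 4.47 ± 1.11 RPKM in young heterozygous partners, whose ranges were 9.78 to 24.6 and 3.25 to 5.94 RPKM.

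Other chaperone genes of the ER lumen were higher together with Manf. For Manf and these genes too, a difference in collection time between the groups cannot be told apart from an effect of the partner. Of 24 tested members of this list 4 rose (Manf included) and none fell, against 0.747% and 0.427% of all tested genes. Of 24 differences 23 were positive (median 0.32, against -0.01 for all genes). Hspa5 (chr2:34771970-34777547, plus strand), which encodes BiP, the main chaperone of the ER lumen, read 71.5, 76.7, 94, 52.8 and 56.4 RPKM in old-old and 130, 128, 110, 135 and 130 RPKM in WT-partner livers. The WT-partner livers lay close together, above all old-old livers (log2 0.87 ± 0.19, adjusted p = 0.0211). Hyou1 (chr9:44379490-44392369, plus strand), a large chaperone that serves as nucleotide exchange factor for BiP, read 8.21, 10.2, 14.2, 5.48 and 6.78 RPKM against 20.4, 15.8, 15, 22.2 and 20.7 RPKM. The groups were close to touching, with old-old liver 3 just below WT-partner liver 3 (log2 1.08 ± 0.25, adjusted p = 0.0334). Creld2 (chr15:88819646-88826683, plus strand), an ER protein known to be induced by ER stress, read 6.72, 8.57, 15.9, 5.91 and 6.39 RPKM against 18.5, 19.9, 16.6, 17.5 and 18.5 RPKM. Here too old-old liver 3 came nearest to the WT-partner livers, without overlap (log2 1.12 ± 0.27, adjusted p = 0.0417). Ero1lb, an oxidase of disulfide bond formation, was the nearest of those that did not pass, at 8.1 ± 2.36 against 13.1 ± 3.52 RPKM (adjusted p = 0.0645). The calls of Hspa5, Hyou1 and Creld2 held in 6, 3 and 2 of 10 omissions. The call of Hspa5 was lost without old-old livers 4 or 5 (adjusted p = 0.0841 and 0.0767) and without WT-partner livers 1 or 3 (adjusted p = 0.0619 and 0.056).

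The promoters of Hspa5 and Creld2 are shown because they were the only windows of the passing genes that hold the ERSE, searched on both strands as CCAAT and CCACG with any 9 bases between them. Capitals mark the match, which in Creld2 lies on the reverse strand; the windows are chr2:34771840-34772139 and chr15:88819396-88819695, both on the plus strand, from RefSeq on GRCm38.p6.
Hspa5: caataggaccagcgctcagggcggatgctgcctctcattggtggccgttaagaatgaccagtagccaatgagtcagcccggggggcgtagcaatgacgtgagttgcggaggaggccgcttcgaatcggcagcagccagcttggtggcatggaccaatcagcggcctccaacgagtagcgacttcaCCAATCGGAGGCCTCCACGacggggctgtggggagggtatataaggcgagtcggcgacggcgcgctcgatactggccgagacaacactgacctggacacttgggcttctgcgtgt
Creld2: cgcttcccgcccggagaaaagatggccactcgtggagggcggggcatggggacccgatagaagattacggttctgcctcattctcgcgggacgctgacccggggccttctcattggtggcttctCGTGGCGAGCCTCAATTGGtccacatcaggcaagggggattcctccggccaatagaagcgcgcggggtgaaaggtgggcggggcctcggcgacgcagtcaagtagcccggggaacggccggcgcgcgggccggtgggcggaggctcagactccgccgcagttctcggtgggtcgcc
These letters occur in 39 of all 32851 windows (0.119%), which were not limited to tested genes. No windows of Manf, Hyou1, Wee1 or Gys2 are in the table.

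Further genes of the secretory pathway rose outside that list. Hspa13, a member of the HSP70 family bound to ER membranes, rose from 2.27 ± 0.409 to 3.95 ± 0.524 RPKM (log2 0.69 ± 0.13, adjusted p = 0.0109) and passed in all 10 omissions. Ostc, a subunit of the oligosaccharyltransferase that glycosylates new proteins, rose from 6.06 ± 0.56 to 9.17 ± 0.577 RPKM (log2 0.56 ± 0.11, adjusted p = 0.0144). Spcs2, of the signal peptidase complex, rose by 0.43 ± 0.10, and Tmed9 and Tmed7, cargo receptors of vesicles between ER and Golgi, rose by 0.46 ± 0.12 and 0.25 ± 0.05. Atp2a2, the calcium pump SERCA2 of the ER, rose from 16.6 ± 2.18 to 23.8 ± 3.74 RPKM (adjusted p = 0.0408). Its highest level, 30.3 RPKM, was in WT-partner liver 4, which held muscle RNA, against 21.3 to 23.9 RPKM in the other WT-partner livers; the pump is also made in muscle, and the part of that RNA was not tested. Gfpt1, which opens the hexosamine pathway that feeds glycosylation, rose by 0.49 ± 0.12 (adjusted p = 0.0498). Omissions of a single liver kept the call of Ostc in 8 of 10 cases, Tmed7 in 7, Spcs2 in 4, Atp2a2 in 3, and Tmed9 and Gfpt1 in 2. These secretory genes were picked from the passing genes after their values were seen. For them too, a difference in collection time cannot be told apart from an effect of the partner. None of 24 tested genes of unfolded protein sensing and ER-associated degradation passed by limma, and 21 differences were positive (median 0.22). Of these genes 6 were higher without overlap, as were 5 of the 24 chaperones and 240 of all 9372 tested genes (2.56%). The difference between these lists was not tested. Nearest to passing were Edem1, Ssr3 and Ssr1, each with an adjusted p = 0.0555. In the ATF4 list, genes of the integrated stress response, none of 15 passed and the median was 0.01. Of 20 tested cytosolic heat shock genes none passed (median 0.26), with Hsp90aa1 at 16.1 ± 7.0 against 26.6 ± 5.5 RPKM (adjusted p = 0.0819).

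**Figure D3:**
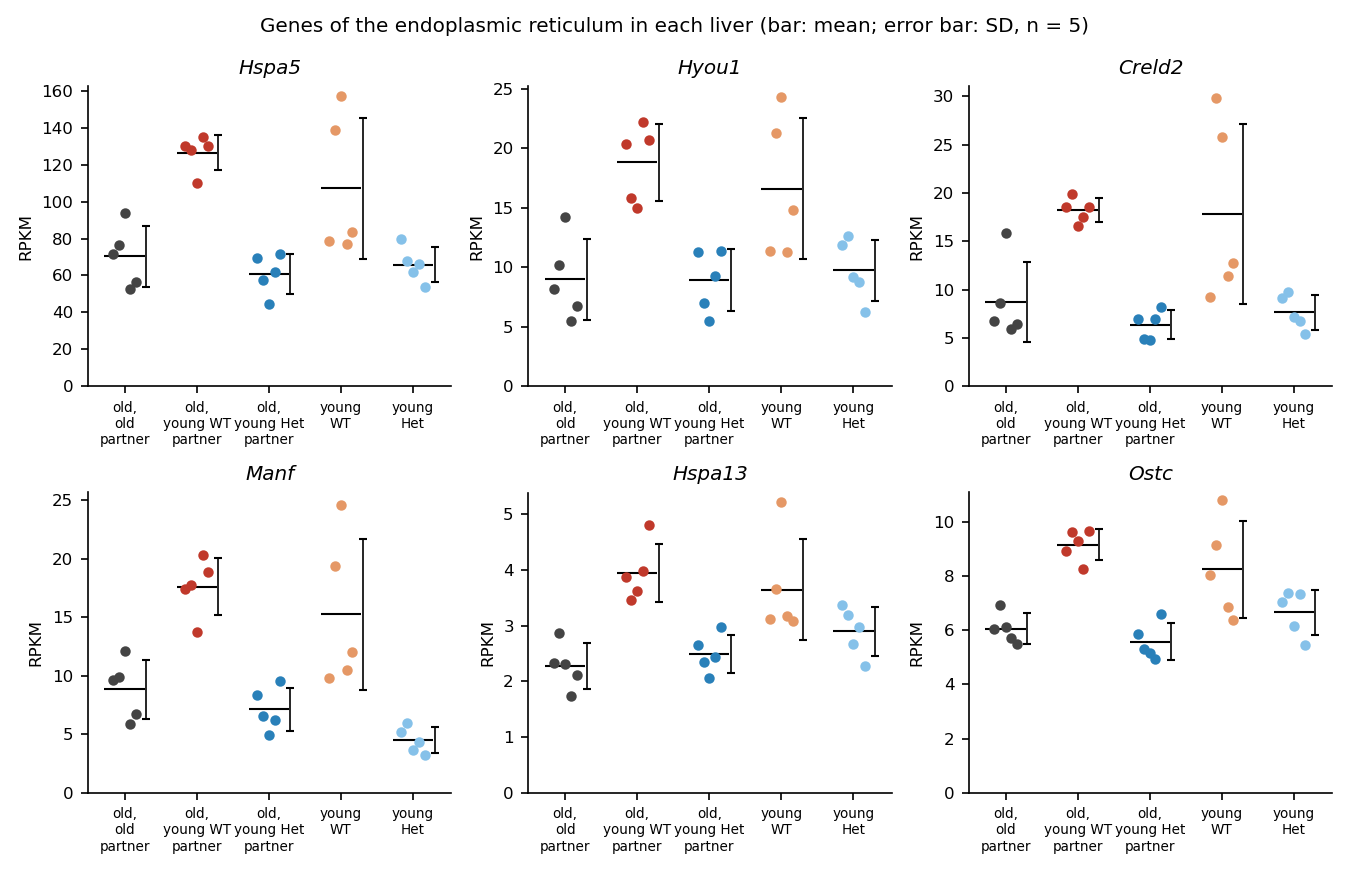
RPKM of 6 genes of the ER in each of 25 livers; horizontal bars are means and error bars SD (n = 5 per group). The WT-partner livers lie above the old-old livers in every panel, and the young WT livers spread over a wide range, in Hspa5 from 77.1 to 157 RPKM.

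Large rises outside the clock and the ER came from genes of the cytoskeleton, glycogen handling and transport. For these and all genes below, a difference in collection time cannot be told apart from an effect of the partner. Tubb2a (chr13:34074274-34078007, minus strand), a beta tubulin, read 12.2, 12.1, 11.2, 14.7 and 8.29 RPKM in old-old and 31.9, 31.3, 38.9, 65.1 and 22.4 RPKM in WT-partner livers. The groups did not overlap, and the highest level was in WT-partner liver 4, which held muscle RNA, whose part in this result was not tested (log2 1.59 ± 0.38, adjusted p = 0.0408). The call held in 3 of 10 omissions. Of 11 tested tubulin genes Tubb2a alone passed, against 1.17% of all tested genes (list median 0.25). Tubb4b and Tuba1c also showed no overlap, at limma adjusted p = 0.0619 and 0.115. Among all tested genes 2.56% were higher without overlap. Ppp1r3b (chr8:35375739-35388139, plus strand), which targets protein phosphatase 1 to glycogen, read 13, 9.29, 9.26, 4.53 and 3.94 RPKM against 16.1, 9.53, 23.8, 20.7 and 11.9 RPKM. Here old-old liver 1 was above WT-partner livers 2 and 5, so the groups overlapped (log2 1.04 ± 0.25, adjusted p = 0.0417).

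Among transporters, Slc30a10 (chr1:185454848-185468762, plus strand), an exporter of manganese, read 3.01, 4.66, 2.06, 1.51 and 2.96 RPKM in old-old and 7.07, 4.98, 9, 6.47 and 5.62 RPKM in WT-partner livers. Old-old liver 2 came close to WT-partner liver 2 without reaching it (log2 1.14 ± 0.24, adjusted p = 0.017). In the same list of 11 tested metal genes the metallothioneins Mt1 and Mt2, which bind zinc, did not pass. Mt1 stood at 78.0 ± 52.7 against 13.1 ± 10.6 RPKM (log2 -2.48 ± 0.72, adjusted p = 0.0791) and Mt2 at 72.6 ± 47.7 against 14.4 ± 16.2 RPKM (adjusted p = 0.14). Both varied widely between livers of one group, Mt1 from 17.2 to 152 RPKM in the old-old group. Slc45a3 (chr1:131962967-131982969, plus strand), a solute carrier reported to move sugars, read 2.89, 3.27, 2.53, 1.48 and 1.95 RPKM against 5.56, 5.15, 8, 4.37 and 5.65 RPKM. The groups were apart, and the call held in 9 of 10 omissions (log2 1.11 ± 0.22, adjusted p = 0.0138).

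Major urinary proteins, abundant pheromone carriers made by the liver under pulsed growth hormone and higher in males, had the largest log2 difference among passing genes. Mup11 (chr4:60658466-60662411, minus strand) read 12.5, 59.3, 4.04, 2.07 and 1.69 RPKM in old-old and 302, 14.9, 85.6, 94.9 and 58 RPKM in WT-partner livers. Levels differed between livers of one group by more than an order of magnitude, and old-old liver 2 and WT-partner liver 2 crossed over, so the groups overlapped (log2 3.36 ± 0.76, adjusted p = 0.0299). Mup19 (chr4:61778324-61782269, minus strand) read 2.15, 6.28, 1.9, 1.3 and 0.988 RPKM against 15, 4.32, 8.77, 5.37 and 9.07 RPKM. The same 2 livers crossed over (log2 1.68 ± 0.39, adjusted p = 0.0347). Mup2 (chr4:60135932-60154289, minus strand) read 1.52, 3.2, 0.928, 0.813 and 1.44 RPKM against 6.57, 2.26, 4.59, 3.39 and 4.55 RPKM (log2 1.23 ± 0.30, adjusted p = 0.0417). Once more old-old liver 2 was high and WT-partner liver 2 low within their groups. The Mup genes are near-identical copies, and how reads matching several of them were counted is not given in the sources used here, so the split between these genes is uncertain.

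Nudt7 (chr8:114133557-114154739, plus strand), a peroxisomal enzyme that breaks down coenzyme A, belongs to the same list of 28 tested male-biased genes. It read 31.2, 68.2, 30.5, 34.4 and 35.1 RPKM in old-old and 92.7, 82.7, 113, 47.2 and 70.7 RPKM in WT-partner livers. Old-old liver 2 again stood high and overlapped the other group (log2 1.03 ± 0.25, adjusted p = 0.0408). These were the 4 of the list that rose and none fell, against 0.747% and 0.427% of all tested genes. Of 28 differences 27 were positive (median 0.56, against -0.01 for all genes). Each call was lost in most omissions of a single liver, holding in 4 of 10 for Mup11, 3 for Mup19, and 2 each for Mup2 and Nudt7. Elovl3, a fatty acid elongase, was nearest to passing, at 17.9 ± 7.76 against 81.2 ± 39.0 RPKM without overlap (log2 2.08 ± 0.56, adjusted p = 0.0593). None of 16 tested female-biased genes passed by limma, and 14 of 16 differences were negative (median -0.78). Among these Cyp2a5, a cytochrome P450, stood at 249 ± 68.3 against 114 ± 66.8 RPKM (adjusted p = 0.0884). Igf1, the main hormone made by the liver under growth hormone, stood at 41.6 ± 4.08 against 37.7 ± 6.64 RPKM, with overlapping groups. The sources do not name the sex of the animals. For both sex-biased lists, Mup genes included, a difference in sex between the groups cannot be told apart from an effect of the partner.

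Outside the clock lists, one of the larger falls was that of Serpina6 (chr12:103646630-103657212, minus strand), which encodes corticosteroid-binding globulin, the plasma carrier of glucocorticoids. It read 225, 173, 185, 269 and 226 RPKM in old-old and 71.6, 133, 64.3, 79.6 and 132 RPKM in WT-partner livers. WT-partner livers 2 and 5 were the highest of their group and still below all old-old livers, and the call held in all 10 omissions (log2 -1.21 ± 0.22, adjusted p = 0.00813). Dsg1c, a cadherin of desmosomes, read 7.88, 3.86, 7.73, 7.89 and 6.08 RPKM against 2.1, 3.12, 2.07, 1.57 and 2.78 RPKM. Old-old liver 2 was nearest to the other group, without overlap (log2 -1.33 ± 0.27, adjusted p = 0.0162). Pcsk4 (chr10:80321283-80329498, minus strand), a proprotein convertase best known from germ cells, read 4.58, 5.54, 6.23, 6.19 and 8.44 RPKM against 2.88, 2.61, 2.44, 2.65 and 4.59 RPKM. WT-partner liver 5 just exceeded the lowest old-old liver (log2 -0.93 ± 0.19, adjusted p = 0.0182).

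Other genes that fell included transporters and regulators of metabolism. Slc2a9, a urate transporter, fell from 10.2 ± 0.837 to 7.09 ± 0.901 RPKM and Slc38a3, a glutamine transporter, from 330 ± 38 to 232 ± 35.8 RPKM (log2 -0.49 ± 0.10 and -0.51 ± 0.12). Bnip3, a mitophagy receptor gene, fell by 0.63 ± 0.13, and Amdhd2, of amino sugar breakdown, by 0.53 ± 0.09, the latter passing in all 10 omissions. Ppargc1b, a coactivator of mitochondrial and lipid genes, fell by 0.86 ± 0.20 (adjusted p = 0.0408), which held in 4 of 10 omissions. Among genes that rose, Clpx, the unfoldase of a mitochondrial protease, was higher by 0.93 ± 0.19, Chka, a choline kinase, by 0.93 ± 0.20, and Adipor2, an adiponectin receptor, by 0.70 ± 0.16, the last holding in 4 of 10 omissions. Lrfn3, an adhesion protein gene best known in neurons, and Pik3c2a, a lipid kinase of membrane traffic, rose by 0.91 ± 0.15 and 0.41 ± 0.07 and passed in all 10 omissions.

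Most metabolic programmes of the liver had few passing members. Among all tested genes 0.747% rose and 0.427% fell, with a median of -0.01. Of 23 tested genes of cholesterol synthesis and uptake none passed by limma, 22 differences were positive, and the median was 0.48. The higher levels came from WT-partner livers 3 to 5, where the list summed to 780, 849 and 687 RPKM, against 516 and 495 RPKM in livers 1 and 2 and 396 to 566 RPKM in old-old livers. Hmgcs1, the synthase ahead of the pathway's rate-limiting step, stood at 27.5 ± 5.76 against 65.6 ± 31.8 RPKM without overlap (log2 1.13 ± 0.34, adjusted p = 0.0918). None of 21 lipogenesis enzymes passed (median 0.28), with fatty acid synthase, Fasn, at 25 ± 12.2 against 40.8 ± 18.9 RPKM (adjusted p = 0.203). Of 27 PPARA targets and fatty acid oxidation genes 1 rose (median -0.07). This was Pdk4, the kinase that switches off pyruvate dehydrogenase, which went from 0.936 ± 0.193 to 1.96 ± 0.465 RPKM (log2 0.76 ± 0.15, adjusted p = 0.0138). Cpt1a, the gate of fatty acid entry into mitochondria, stood at 76.4 ± 7.65 against 55.3 ± 10 RPKM (adjusted p = 0.125).

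In the list of 20 gluconeogenesis and glucose handling genes Gys2 fell and no gene rose (median -0.01). Here and for the bile acid list the shares over all tested genes were 0.427% lower and 0.747% higher. G6pc, which releases free glucose from the liver, did not pass although its groups were apart, at 25.3 ± 10.9 against 66.4 ± 15.6 RPKM (log2 1.47 ± 0.45, adjusted p = 0.0974). Of 21 bile acid genes 1 rose, Hsd3b7, an enzyme early in bile acid synthesis, from 1.59 ± 0.256 to 2.62 ± 0.311 RPKM (log2 0.58 ± 0.11, adjusted p = 0.0138). Nr0b2, the receptor SHP that represses bile acid synthesis, stood at 14 ± 8.8 against 28.3 ± 2.77 RPKM (adjusted p = 0.0645). None of 35 cytosolic ribosomal protein genes passed, and all 35 differences were negative (median -0.14). The mean log2 level of the list was 6.744, 6.743 and 6.947 in old-old livers 1, 3 and 4. It was 6.381 and 6.473 in old-old livers 2 and 5, against 6.44 to 6.617 in WT-partner livers.

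**Figure D4:**
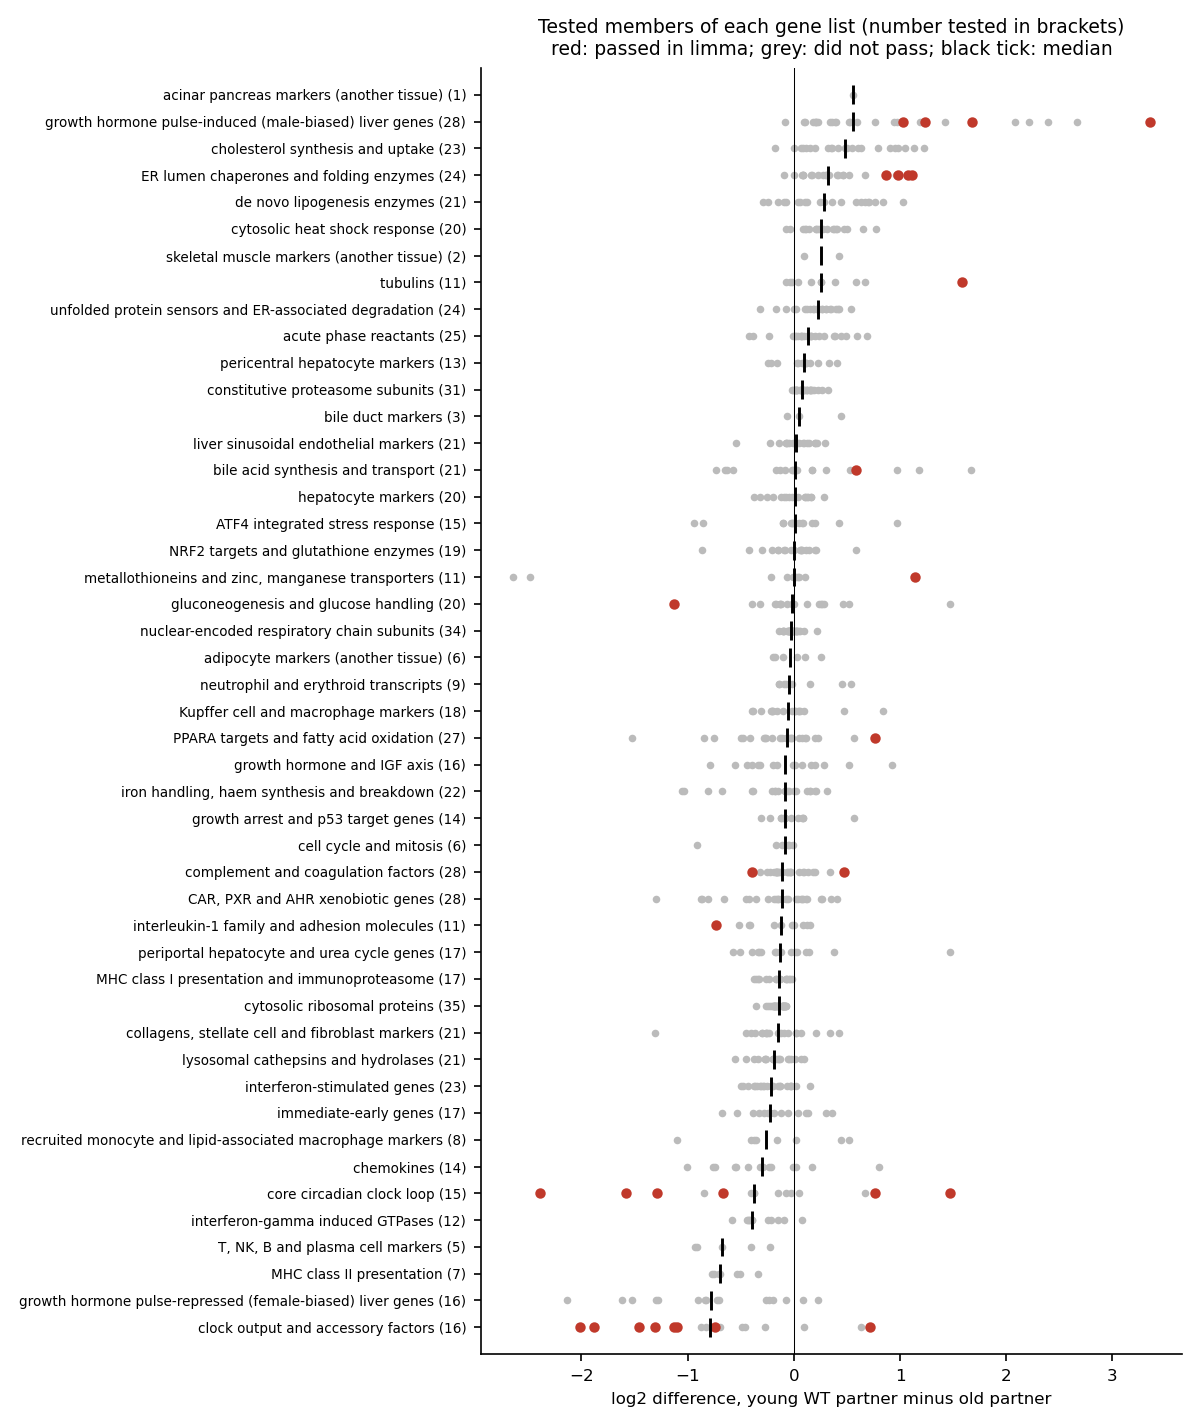
Log2 difference between WT-partner and old-old livers for every tested member of 47 gene lists, with the number tested in brackets, ordered by list median (black tick). Red points are members that passed and grey points those that did not; in 36 of the 47 lists no member passed.

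Lists of immune, endothelial and stellate cell transcripts were set beside these results; in bulk tissue fewer cells of a type and less RNA per cell cannot be told apart. None of the 7 tested MHC class II genes passed, and all 7 differences were negative (median -0.70). Cd74, the MHC class II invariant chain, stood at 126 ± 116 against 67.3 ± 35.2 RPKM (adjusted p = 0.437), and the wide spread of the first group came from old-old liver 4, at 330 RPKM. Of 23 interferon-stimulated genes none passed (median -0.21), nor of 18 Kupffer cell and macrophage markers (median -0.06), 21 sinusoidal endothelial markers (median 0.02) or 21 collagen and stellate cell genes (median -0.15). Kupffer markers summed to 357 to 825 RPKM in old-old and 335 to 577 RPKM in WT-partner livers. Cd79a, part of the B cell receptor, did not pass but showed no overlap, at 3.36 ± 2.94 against 1.23 ± 0.19 RPKM (log2 -0.93 ± 0.27, adjusted p = 0.0806).

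Of the interleukin-1 and adhesion list 1 of 11 tested members passed, against 1.17% of all tested genes. Il1rn, the interleukin-1 receptor antagonist, fell from 1.25 ± 0.451 to 0.557 ± 0.331 RPKM (log2 -0.74 ± 0.17, adjusted p = 0.0381), a call that held in 2 of 10 omissions. WT-partner liver 2 lay within the old-old range at 1.12 RPKM, and old-old liver 4 was highest at 1.9 RPKM, the livers that also stood highest in MHC class II transcripts of their groups; the part of those transcripts in this call was not tested. Among 28 complement and coagulation genes 1 rose and 1 fell, against 0.747% and 0.427% of all tested genes. Mbl1, a mannose-binding lectin of the complement system, rose from 125 ± 16.5 to 175 ± 31.5 RPKM (adjusted p = 0.0416), and F5, coagulation factor V, fell from 73.8 ± 4.94 to 56.1 ± 6.11 RPKM (adjusted p = 0.0408); both calls held in 3 of 10 omissions. No acute phase gene of 25 passed by limma, with Crp, C-reactive protein, at 73.5 ± 6.75 against 96.7 ± 9.52 RPKM without overlap (adjusted p = 0.0683).

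Whether the genes that changed in the old liver also differed between the young partners was read from the young WT minus the young heterozygous livers, whose levels do not enter the old-liver differences. The model estimates each gene's spread from all 25 livers, so both comparisons share their SE, and genes that passed in one were favoured to pass in the other. The young WT mice were also the joined partners of the WT-partner mice, so the comparisons are not independent. A difference in collection time between kinds of pair could enter both and cannot be told apart from an effect of the partner. Between the young livers 481 of 9372 genes passed (5.13%), of which 132 were higher (1.41%) and 349 lower (3.72%). Of the 70 genes higher with a young WT partner 31 passed as higher (44.3%) and none as lower, 69 differences were positive, and the median was 0.39. Of the 40 lower genes 27 passed as lower (67.5%) and none as higher, 38 differences were negative, and the median was -0.51. Over all tested genes the median was -0.05. Read from the other side, the 31 were 23.5% of the 132 and the 27 were 7.74% of the 349.

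Clock genes were among those that passed in the young livers too. Arntl averaged 0.971 ± 0.199 RPKM in young WT and 0.163 ± 0.104 RPKM in young heterozygous livers (log2 1.15 ± 0.16, adjusted p = 0.00109), Usp2 1.5 ± 0.804 and 9.46 ± 4.19 RPKM (log2 -2.28 ± 0.35, adjusted p = 0.00134), and Ciart 1.31 ± 0.949 and 8.19 ± 4.18 RPKM (log2 -2.22 ± 0.42, adjusted p = 0.00557). Tubb2a differed by 1.84 ± 0.38, higher in young WT livers (adjusted p = 0.00823). The Mup genes and Nudt7 did not pass there. Mup11 averaged 207 ± 101 RPKM in young WT and 160 ± 92 RPKM in young heterozygous livers (log2 0.39 ± 0.76, adjusted p = 0.811), and Nudt7 102 ± 21.3 and 110 ± 29.9 RPKM (adjusted p = 0.879). Il1rn, at 0.371 ± 0.0839 and 0.247 ± 0.0853 RPKM, did not pass either (adjusted p = 0.481).

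**Figure D5:**
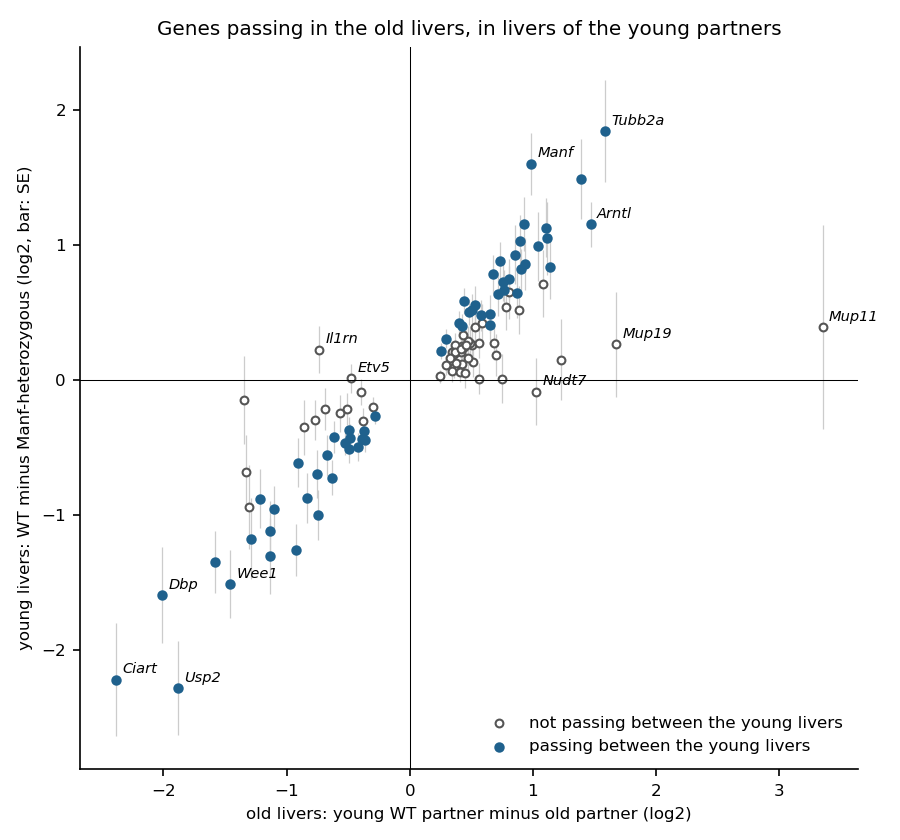
For the 110 genes that passed in the old livers, the log2 difference between WT-partner and old-old livers (horizontal) is plotted against that between young WT and young heterozygous livers (vertical, grey bar SE). Filled points passed in the young livers; Ciart, Dbp and Usp2 lie far down on the left, and Mup11, Mup19 and Nudt7 lie near 0 on the vertical axis.

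Old livers with a het partner were also compared with young heterozygous livers, which shares only the estimate of spread with the main comparison. The old mice were WT and the young ones heterozygous for Manf, so age and Manf genotype cannot be told apart there. There 85 genes were higher in the old livers (0.907%) and 435 lower (4.64%), with a median over all genes of -0.13. With a young WT instead of an old partner, the 85 genes had a median of 0.005 and none passed. The 435 genes had a median of 0.02, and 2 passed in each direction (0.46%). Both medians were close to that of all tested genes, -0.01.

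WT-partner and het-partner old livers were also compared directly, as WT-partner minus het-partner livers, in which the old-old livers cancel. A difference in collection time between these groups cannot be told apart from an effect of the partner's genotype. Of 9372 genes 3065 passed (32.7%); 2777 were higher (29.6%) and 288 lower (3.07%), with a median of 0.14 over all genes. After median-of-ratios scaling the median was -0.001 and the split was 893 higher (9.53%) against 837 lower (8.93%). This comparison shares the WT-partner livers with the main one, so values are given side by side only. Arntl was higher by 1.73 ± 0.16 than with a het partner (adjusted p = 2.22e-06), and het-partner minus old-old livers gave -0.26 ± 0.16 (adjusted p = 0.242). Usp2 was lower by -2.74 ± 0.35 (adjusted p = 4.37e-05), and het-partner livers stood at 8.98 ± 3.35 RPKM, with 0.86 ± 0.35 against old-old livers (adjusted p = 0.0725). Hspa5 was higher by 1.07 ± 0.19 (adjusted p = 0.000529), with -0.19 ± 0.19 for het-partner minus old-old livers (adjusted p = 0.452).

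For Mup11 and Il1rn the test between the 2 kinds of young partner did not pass. Mup11 differed by 1.25 ± 0.76 (adjusted p = 0.203), and het-partner livers, at 35.8 ± 19.3 RPKM, were themselves above old-old livers by 2.10 ± 0.76 (adjusted p = 0.0466). Il1rn differed by 0.01 ± 0.17 (adjusted p = 0.974) and was lower with a het partner as well, at 0.522 ± 0.133 RPKM (log2 -0.75 ± 0.17 against old-old livers, adjusted p = 0.00475). Nudt7 passed at 0.64 ± 0.25 (adjusted p = 0.0484) but not after scaling (adjusted p = 0.16). The WT-partner livers were also set beside the young WT livers to which that group had been joined, where 11 of 9372 genes passed by limma (0.117%), each of them higher in the old livers. Young WT minus old-old livers gave 163 higher (1.74%) and 854 lower genes (9.11%). The medians over all genes were 0.08 for WT-partner minus young WT livers and -0.08 for young WT minus old-old livers. Both comparisons share the young WT livers, and only the first is between groups joined to each other. The counts were not tested against each other. A collection time common to joined mice cannot be told apart from an effect of the partner.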

How the data were processed

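Liver RNA of 25 mice was extracted with Trizol from flash frozen tissue and sequenced from TruSeq Stranded mRNA libraries, per the labels' protocols. The authors deposited a table of RPKM values. Per the submitters' processing notes, STAR 2.4.2a, HTSeq and the mm10 build were used; whether counting used strand, and what was done with reads that match several genes, is not given in the sources used here. Of 60354 rows 36222 held no value; Plin2, listed as infinite, and 24 rows named by a date number were left out, and 17838 genes were above 0. No mitochondrially encoded gene was present (0). Whole reads were recovered from the spacing of values, within 0.02 reads, for 14321 genes by gene length and 3405 by spacing, not for 112.

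Genes that reached 1 RPKM in 5 or more of 25 libraries were fitted with limma 3.58.1 in R 4.3.3 (log2 of RPKM plus 0.5, intensity trend, 5 groups, 20 residual degrees of freedom), with p-values adjusted over all tested genes (Benjamini-Hochberg) and called under 0.05. The procedure was run on simulated data with known changes. Genes were drawn independently there and no liver deviated, so the run says nothing on the dependence of counts on single livers. Manf was compared by an exact permutation test. Groups came from the labels. The livers, gene lists and comparisons were chosen with earlier results of these data known. Named were Manf, the 12 largest differences in each direction among passing genes that averaged 1 RPKM or more in the 10 compared livers, predicted genes left out, passing members of lists, and the members of lowest p where few passed. A few of the genes so chosen are left out of the text. Positions are from GENCODE M21, promoters from RefSeq. Alternatives covered the added constant, filter, scaling, weights, libraries in the model, recovered reads with voom, the replicate number as a block and each liver left out. Python 3.11.15 with pandas 2.3.3, numpy 2.4.6 and matplotlib 3.10.9 served for tables and plots.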

Additional observations from a re-analysis of the deposited data

Results flagged for a closer look

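In 48 groups of 5 livers, formed by Manf and the genes of largest difference in each direction, 24 genes in the 2 groups, the highest or lowest liver was checked for a gap to its neighbour that is large against the range of its group. For normally distributed, independent values chance gives about 1 such group in 20, and 7 were found. RPKM need not be so distributed and the genes share livers, so the 7 cannot be read as an excess. In the old-old group, liver 2 stood apart in Mup11 (59.3 RPKM), Mup19 (6.28 RPKM) and Nudt7 (68.2 RPKM), each time above the rest. Old-old liver 3 stood apart in Creld2 (15.9 RPKM) and old-old liver 5 in Ciart (9.64 RPKM). In the WT-partner group, liver 1 stood apart in Mup11 (302 RPKM) and liver 5 in Pcsk4 (4.59 RPKM).

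Among the same genes, those whose WT-partner livers differed from het-partner livers by limma (adjusted p under 0.05 over all genes) are listed next. They were chosen on differences that use the same WT-partner livers, which favours passing, and 32.7% of all tested genes passed this test, or 9.53% as higher and 8.93% as lower after scaling. Among genes higher with a WT partner the log2 difference was 1.27 for Manf, 2.32 for Tubb2a, 1.73 for Arntl, 1.36 for Slc30a10 and 1.47 for Creld2. It was 1.57 for Slc45a3, 1.07 for Hyou1, 1.16 for Ppp1r3b and 0.64 for Nudt7, the last no longer passing after scaling. Among lower genes of the clock it was -3.04 for Ciart, -2.11 for Dbp, -2.74 for Usp2, -1.64 for Per3, -1.96 for Wee1, -1.78 for Per1 and -1.16 for Tef. It was -0.77 for Dsg1c, -1.55 for Upp2, -1.2 for Serpina6, -1.37 for Gys2 and -1.16 for Pcsk4. No cause of these differences was tested.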

How the results depend on the processing

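The 110 passing genes became 101 and 115 with constants of 0.1 and 1, 119 with a filter at 5 RPKM, 113 with voom on recovered reads and 79 with the 10 compared livers alone. The count moved further, to 175, with median-of-ratios scaling, to 48 with no filter on low values, to 317 with weights per library and to 13 with the replicate block, of which 10 were among the 110. Omission of single livers gave 12 to 231 genes, lowest without WT-partner liver 3 and highest without old-old liver 2. Leaving out the liver of each group highest in MHC class II transcripts, an alternative chosen after seeing the data, gave 32. Replicate numbers did not pair the livers: deviations of same-numbered livers correlated at -0.53 to 0.22, and 1 of 5 old-old livers correlated best with its own number. The 3065 genes of the WT minus het partner difference became 1444 with the filter at 5 RPKM, 1730 with scaling and 2067 with the replicate block, and omissions gave 1957 (without het-partner liver 4) to 3486. By the exact permutation test Manf kept its direction and side of the threshold under each alternative run (0.86 to 1.10 in omissions, p up to 0.0159). Since its groups did not overlap, other constants and omissions could not have moved that test across the threshold, so they add no support. By limma its call was lost under the replicate block (adjusted p = 0.155), with no filter (adjusted p = 0.0776) and in 7 of 10 omissions. Of the 106 named passing genes 59 passed in at least 5 of 10 omissions and 47 in fewer; none turned direction under any alternative (0). The cause of these shifts was not tested. With 5 livers a group, differences of genes as variable as Mup11 or Mt1 are poorly resolved.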
